A study of Mus musculus with 6 samples.

Results

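The lysosome is the acidic compartment in which a cell takes apart proteins, lipids and sugars that reach it by endocytosis or autophagy. Described here are 10 lysosome-related genes: the cathepsins Ctsb, Ctsc, Ctsd, Ctsk, Ctsl, Ctss and Ctsz, the membrane proteins Lamp1 and Lamp2, and the transcription factor Tfeb. They were chosen by gene symbol and not by a cut on measured values, although earlier results of these data were known. All 10 were present among the 41709 genes of the expression table. All 10 also passed the filter on low values, which asked for a mean of at least 1 over the libraries in TPM, a unit of transcript abundance corrected for gene length and library size, and which 11611 genes passed.

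RNA was sequenced from 6 tibialis anterior (TA) muscles of male C57BL/6J mice, 3 electroporated with a plasmid for LrpprcWT and 3 with a plasmid for LrpprcP27A, in which proline 27 is replaced by alanine so that it cannot be dihydroxylated. Lrpprc is an RNA binding protein that controls mitochondrial mRNA stability. Both plasmids carry a 3xFlag tag and a viral CMV promoter that is active in many cell types, so every muscle in the comparison received an Lrpprc plasmid, and no untransfected muscle was analysed here. The study placed the variants in opposite legs of the same mice and examined gene expression at 14 days. No label names the mouse, so libraries with the same number were taken to be the paired legs of a mouse. The study electroporated mice of 4 and of 27 months of age, and the age of the sequenced animals is not given in the sources used here. Each library is whole muscle, so fewer cells of a given type and less RNA per cell cannot be told apart.

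Lrpprc itself was at 35.1, 37.0 and 75.2 TPM in the LrpprcWT libraries and at 26.9, 29.7 and 26.0 TPM in the LrpprcP27A libraries. The groups did not overlap, with the third LrpprcWT library far above the rest, but the difference did not pass (log2 fold change -0.72 ± 0.26 SE, limma adjusted p = 0.0652), although it did once the legs were paired (adjusted p = 0.00243). By qRT-PCR the paper reports similar Lrpprc mRNA for the variants in young mice and no significant difference between them in old mice. A TPM value per gene shows neither the P27A change nor how much of the RNA came from the plasmid. TPM always sums to the same total, and read depth was not available from it. The LrpprcWT libraries had 18603 to 19053 genes above 0 and the LrpprcP27A libraries 17774 to 18197. The median log2 fold change (LrpprcP27A over LrpprcWT) of all tested genes was -0.32 on the deposited scale and -0.0047 after median-of-ratios scaling, which sets the typical gene to no change, so each value below should be read against that shift of the typical gene.

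Cathepsins are made as inactive precursors, are sorted to the lysosome by mannose 6-phosphate receptors and are activated at its low pH. Ctsd is an aspartic protease and Ctsb, Ctsc, Ctsk, Ctsl, Ctss and Ctsz are cysteine proteases of the papain family. Lamp1 and Lamp2 are the heavily glycosylated proteins that line the lysosomal membrane, and Lamp2 also serves autophagy. Tfeb drives many lysosomal genes by binding E-box letters in their promoters, and in skeletal muscle cathepsin L in particular is known as a gene that rises during wasting.

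The E-box core CACGTG and the longer form TCACGTGA, to which Tfeb is known to bind, were looked for in the 250 bases before and 50 after each annotated start. Each motif is its own reverse complement, so both strands are searched at once, and every TCACGTGA also counts as a CACGTG. The windows are from RefSeq (table of build GRCm38.p6), and the coordinates given come from an exact, single match to GRCm39. Of the members, 9 had windows, and 3 of these held the core: Lamp1 held 4 copies, Ctsd 2 and Ctsl 1. Only the copy 98 bases before the Ctsd start had the longer form. The stretches are shown because Tfeb, their known binder, is itself a member, and because they let the promoters of members be compared. Starts are those of the RefSeq windows. GENCODE places the outermost start of these genes farther upstream, so the Ctsl stretch, the Ctsd copy at 98 and the Lamp1 copies at 28 and 15 lie within the GENCODE gene bounds given below. Motif letters are in capitals, and the stretches are chr8:13209089-13209151 on the plus strand for Lamp1, chr7:141941793-141941814 and chr7:141941646-141941673 on the minus strand for Ctsd, and chr13:64518554-64518581 on the minus strand for Ctsl.
Lamp1, copies at 61, 45, 28 and 15 bases before the start: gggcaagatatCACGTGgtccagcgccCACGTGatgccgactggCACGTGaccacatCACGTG
Ctsd, copy at 245 bases before the start: tccccCACGTGacctgtatcca
Ctsd, copy at 98 bases before the start: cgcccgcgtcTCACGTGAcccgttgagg
Ctsl, copy at 236 bases before the start: gcgttagaagcCACGTGctgatctaaat

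Across all 32851 windows in the table, 7.15% held CACGTG and 0.974% held TCACGTGA, and of all genes with a window 8.09% and 1.12% had these letters in at least 1 of them. The windows of Ctsc, Ctsk, Ctss, Ctsz, Lamp2 and Tfeb (which has 3) did not hold these letters. Of the lysosomal hydrolase genes 7 of 31 with a window held CACGTG, as did 4 of 15 V-ATPase genes, 4 of 7 sorting genes, 5 of 19 regulators, 3 of 19 membrane proteins, 2 of 12 other cathepsins, 0 of 5 cathepsin inhibitors and 0 of 11 macrophage marker genes. Such a match is a description of the letters and not a measured binding site.

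Of the 10 genes, 7 fell in LrpprcP27A relative to LrpprcWT muscle and none rose. At an unadjusted p under 0.05 limma gave the same counts, 7 and 0. The share of all genes at that unadjusted threshold was not computed, and is at least the 23.3% called lower after adjustment. The unadjusted counts therefore do not set the members apart from other genes. The 7 were Ctss, Ctsk, Ctsz, Lamp2, Ctsc, Ctsl and Ctsb, while Ctsd, Lamp1 and Tfeb did not pass the test. Ctss and Ctsk had the lowest levels relative to LrpprcWT, at 27.7% and 32.6% of its mean, whereas the other 5 were at 52.9% to 69.7%. The test was limma on log2(TPM + 1) with Benjamini-Hochberg adjustment over all genes, by which 23.3% of the genes tested were called lower and 1.34% higher. With the legs of a mouse paired, the same 7 passed and the background of lower calls was 48.4% (2.69% for higher calls). In 7 of the members every LrpprcP27A library was below every LrpprcWT library, as in 47.6% of all genes tested. On 3 against 3 libraries an exact permutation test of 1 gene cannot give a p below 0.1.

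The scaling and 1 library bear on these calls. After median-of-ratios scaling 3 of the 10, Ctss, Ctsk and Ctsz, remained lower against a background of 6.03%, and none was higher (background 5.25%). With that scaling and the legs paired, 6 members were lower (background 15.8%), all but Ctsb of the 7, and 2, Lamp1 and Tfeb, were higher (background 13.4%). Without the third LrpprcWT library none of the 10 passed, with adjusted p of 0.0837 to 0.124 for the 7, all of which kept a log2 fold change below 0 and an unadjusted p under 0.05. In that fit limma called 14 of 11476 genes lower in all. Without the first LrpprcWT library 3 passed, beside 267 of 11453 genes called lower. Without the second LrpprcP27A library 4 did, beside 520 of 11718 genes, and without the third LrpprcP27A library 3, beside 444 of 11698 genes.

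**Figure D1:**
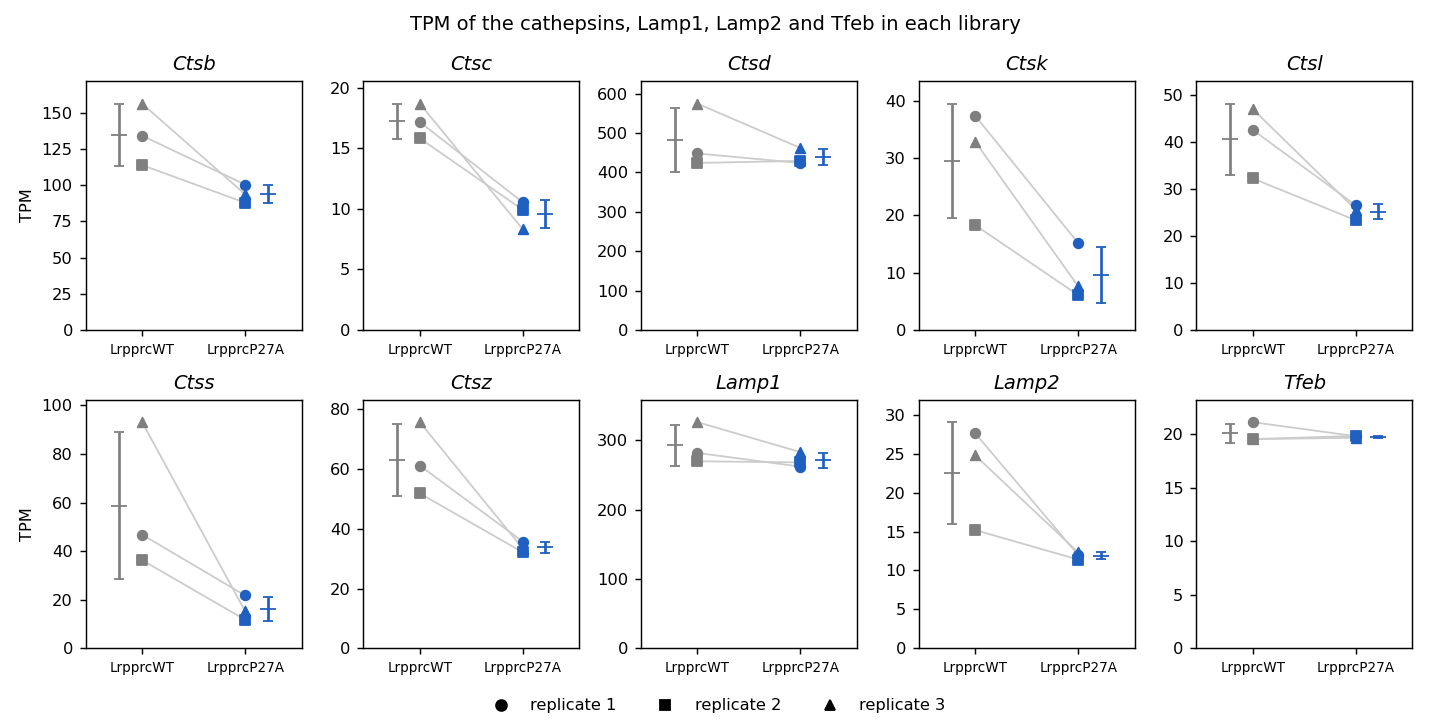
TPM of each of the 10 genes in the LrpprcWT (grey) and LrpprcP27A (blue) libraries; symbols mark replicates, lines join libraries with the same replicate number, and bars are the mean ± SD of 3 libraries, with each vertical axis starting at 0. The groups are separate for Ctsb, Ctsc, Ctsk, Ctsl, Ctss, Ctsz and Lamp2 and overlap for Ctsd, Lamp1 and Tfeb.

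Among the cysteine cathepsins, Ctss, which trims the invariant chain of MHC class II and stays active near neutral pH, differed most. It was at 46.8, 36.3 and 93.0 TPM in LrpprcWT and at 21.8, 11.8 and 15.3 TPM in LrpprcP27A muscle. The third LrpprcWT library lay well above the other two of its group, and the highest LrpprcP27A value was still below the lowest LrpprcWT value. Ctss fell by 1.71 ± 0.33 (SE) on the log2 scale (limma adjusted p = 0.0173), and by 1.35 after median-of-ratios scaling (adjusted p = 0.0377).

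Ctsk encodes a strong collagenase best known from bone-resorbing osteoclasts. Its levels were 37.4, 18.3 and 32.9 TPM in LrpprcWT and 15.2, 6.07 and 7.63 TPM in LrpprcP27A muscle. The second library was the lowest of each group, and the groups came close without overlapping. The log2 fold change was -1.56 ± 0.34 (SE, limma adjusted p = 0.0223), and -1.21 with median-of-ratios scaling (adjusted p = 0.0491). The 4 osteoclast markers summed to 0.684 to 1.09 TPM in LrpprcWT and 0.390 to 0.464 TPM in LrpprcP27A muscle, and none of them passed the filter on low values.

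Ctsz, a carboxypeptidase, was at 61.2, 51.9 and 75.7 TPM in LrpprcWT and at 35.7, 32.2 and 33.4 TPM in LrpprcP27A muscle. The LrpprcP27A values were tightly grouped below those of LrpprcWT, with a log2 fold change of -0.86 ± 0.15 (SE, limma adjusted p = 0.0147), and Ctsz kept its call after scaling (-0.50, adjusted p = 0.0308). Ctsc, the dipeptidyl peptidase that activates serine proteases of immune cell granules, was at 17.2, 15.8 and 18.7 TPM against 10.5, 9.91 and 8.31 TPM. It fell by 0.79 ± 0.13 (SE) on the log2 scale (limma adjusted p = 0.0152), with similar values within each group. After scaling its log2 fold change of -0.44 lay at the threshold (adjusted p = 0.0501).

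Ctsl, the endopeptidase linked to muscle wasting, was at 42.6, 32.3 and 47.1 TPM in LrpprcWT and at 26.5, 23.4 and 25.6 TPM in LrpprcP27A muscle. It was thus lower in every LrpprcP27A library, with a log2 fold change of -0.65 ± 0.15 (SE, limma adjusted p = 0.0249), which became -0.29 with median-of-ratios scaling and no longer passed (adjusted p = 0.0590). Ctsb, a cathepsin that can cut both within and at the end of a chain, was at 134, 114 and 156 TPM in LrpprcWT and at 100.4, 87.9 and 93.7 TPM in LrpprcP27A muscle. This was the smallest difference among the 7, a log2 fold change of -0.51 ± 0.13 (SE, limma adjusted p = 0.0312), and after scaling it was -0.13 (adjusted p = 0.305).

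Ctsd, the aspartic protease, was the most abundant of the 10 genes. It was at 448, 424 and 575 TPM in LrpprcWT and at 424, 429 and 462 TPM in LrpprcP27A muscle, and the groups overlapped. Its log2 fold change did not pass on the deposited scale (-0.13, 95% interval -0.42 to 0.17, limma adjusted p = 0.434) and turned to 0.25 after median-of-ratios scaling (adjusted p = 0.161). As a description, Ctsd lay 0.19 above the median log2 fold change of all genes, while the 6 cysteine cathepsins lay 0.19 to 1.40 below it.

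**Figure D2:**
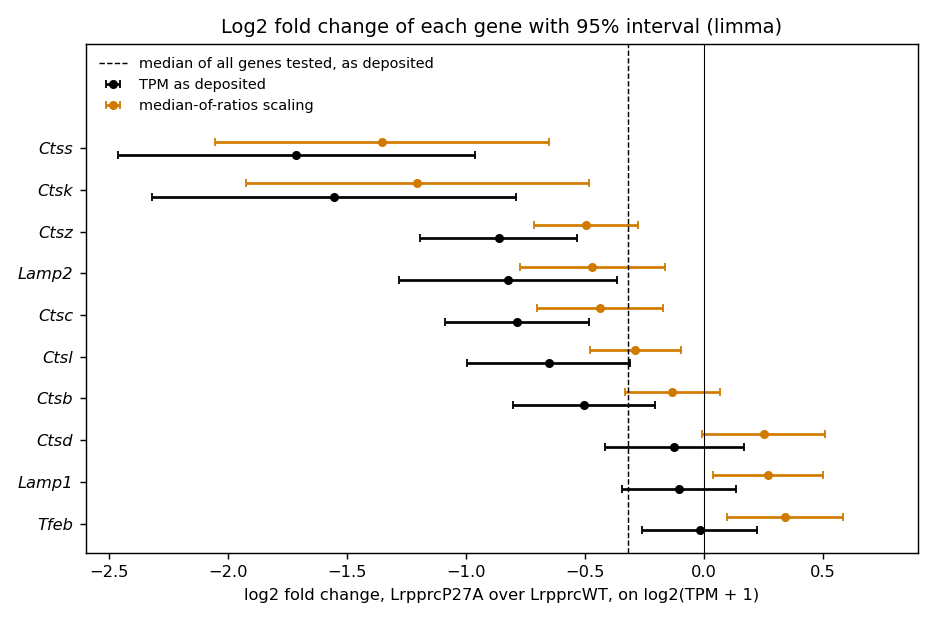
Log2 fold change (LrpprcP27A over LrpprcWT) of each gene with its 95% interval from limma, on TPM as deposited (black) and after median-of-ratios scaling (orange), with the median of all genes tested as a dashed line. Ctss and Ctsk lie farthest below 0 on both scales, whereas Ctsd, Lamp1 and Tfeb lie close to 0 as deposited and above 0, at 0.25 to 0.34, after scaling.

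The lysosomal membrane proteins did not move alike. Lamp2 was at 27.6, 15.2 and 24.8 TPM in LrpprcWT and at 12.0, 11.4 and 12.3 TPM in LrpprcP27A muscle. The second LrpprcWT library was only a little above the LrpprcP27A values, which hardly varied. Lamp2 fell by 0.82 ± 0.20 (SE) on the log2 scale (limma adjusted p = 0.0279), and by 0.47 with median-of-ratios scaling, where it did not pass (adjusted p = 0.0576).

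Lamp1 was at 281, 269 and 326 TPM in LrpprcWT and at 262, 268 and 283 TPM in LrpprcP27A muscle, with overlapping groups. Its log2 fold change was -0.11 (95% interval -0.35 to 0.13, limma adjusted p = 0.424) as deposited and turned to 0.27 after median-of-ratios scaling (adjusted p = 0.109, or 0.0461 with the legs paired as well). The ratio of Lamp1 to Lamp2, which no scaling of a library can alter, was 10.2, 17.7 and 13.1 in LrpprcWT and 21.8, 23.5 and 22.9 in LrpprcP27A muscle. Lamp1 thus exceeded Lamp2 by more in each LrpprcP27A library than in any LrpprcWT library.

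Tfeb, the regulator of lysosomal genes, had the most even level of the 10. It was at 21.1, 19.5 and 19.5 TPM in LrpprcWT and at 19.8, 19.8 and 19.7 TPM in LrpprcP27A muscle, so the groups overlapped. Its log2 fold change was -0.02 (95% interval -0.26 to 0.22, limma adjusted p = 0.886) as deposited and turned to 0.34 after median-of-ratios scaling (adjusted p = 0.0727, or 0.0282 with the legs paired as well). The mRNA level does not show where the Tfeb protein was in the cell, which is how its activity is known to be controlled.

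Since TPM is per transcript length, levels can also be set side by side between genes. In LrpprcWT muscle the order by mean TPM was Ctsd (482 ± 80.9 SD, n = 3), Lamp1 (292 ± 29.7), Ctsb (135 ± 21.2), Ctsz (62.9 ± 12.0), Ctss (58.7 ± 30.2), Ctsl (40.7 ± 7.58), Ctsk (29.5 ± 9.98), Lamp2 (22.5 ± 6.51), Tfeb (20.1 ± 0.915) and Ctsc (17.2 ± 1.43). Neighbours from Ctsz down to Tfeb had overlapping ranges over the 3 libraries, so their order is not settled, whereas Ctsc was separate from Tfeb, and Ctsd, Lamp1 and Ctsb were each separate from the next gene. In LrpprcP27A muscle Ctsd (438 ± 20.7), Lamp1 (271 ± 10.8) and Ctsb (94.0 ± 6.27) again came first, followed by Ctsz (33.8 ± 1.82), Ctsl (25.2 ± 1.64), Tfeb (19.8 ± 0.0933), Ctss (16.3 ± 5.07), Lamp2 (11.9 ± 0.474), Ctsk (9.63 ± 4.87) and Ctsc (9.58 ± 1.14). There, ranges overlapped between neighbours from Tfeb down to Ctsc. By mean, Ctss lay above Ctsl in LrpprcWT and below Tfeb in LrpprcP27A muscle, in each case with overlapping ranges.

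The mix of cathepsin mRNAs, which does not depend on the scaling of a library, also differed. The 7 cathepsins summed to 787, 692 and 998 TPM in LrpprcWT and to 634, 600.5 and 646 TPM in LrpprcP27A muscle. Ctsd made up 56.9%, 61.2% and 57.6% of that sum in LrpprcWT and 66.8%, 71.5% and 71.5% in LrpprcP27A muscle. Its share was thus larger in every LrpprcP27A library. Ctsk and Ctss together made up 10.7%, 7.89% and 12.6% in LrpprcWT and 5.83%, 2.97% and 3.55% in LrpprcP27A muscle, and Ctsz 7.49% to 7.77% and 5.17% to 5.64%. Per unit of Ctsd, Ctss was at 0.104, 0.0856 and 0.162 in LrpprcWT and at 0.0514, 0.0275 and 0.0331 in LrpprcP27A muscle, again without overlap.

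**Figure D3:**
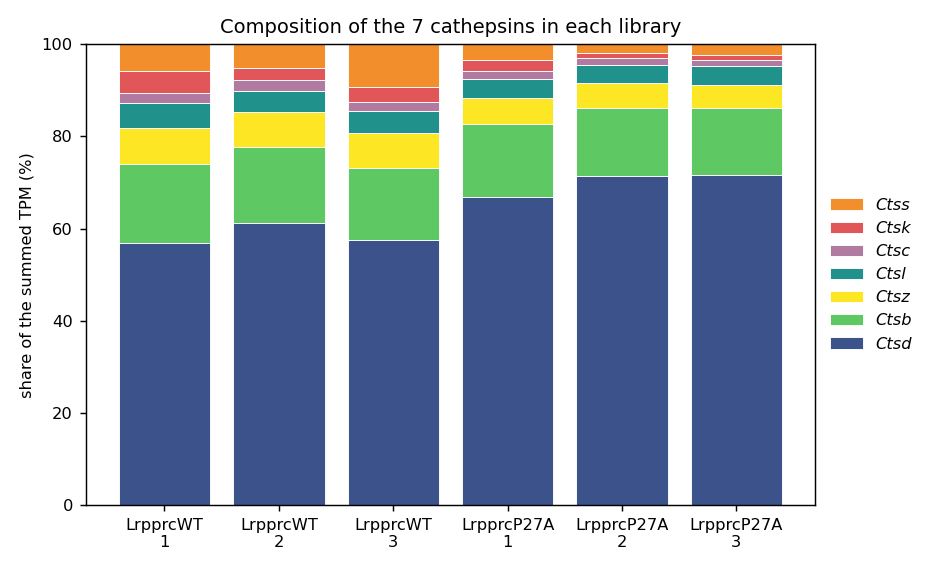
Share (%) of each cathepsin in the summed TPM of the 7 cathepsins, 1 bar for each library. The Ctsd share is 56.9% to 61.2% in LrpprcWT and 66.8% to 71.5% in LrpprcP27A libraries, and the shares of Ctss and Ctsk are smaller in LrpprcP27A libraries.

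Of the 15 other cathepsin genes, 4 were tested and 2 fell, 4 with the legs paired and 1, Ctsh, after median-of-ratios scaling. In these fits 23.3%, 48.4% and 6.03% of all genes tested were lower, and the same shares apply to the lists below. The median of the 4 was -0.46, beside -0.32 for all genes, and became -0.14 after median-of-ratios scaling. Ctsa, the carboxypeptidase that protects beta-galactosidase, had a log2 fold change of -0.50 (limma adjusted p = 0.0289, or 0.312 after scaling), and Ctsh, an aminopeptidase, of -0.94 (limma adjusted p = 0.0220). Ctsf had a value of -0.40 and did not pass unpaired (limma adjusted p = 0.101, or 0.0180 with the legs paired). The cathepsins Ctsj, Ctsm, Ctsq, Ctsr, Cts3, Cts6, Cts7 and Cts8, relatives of Ctsl known from the mouse placenta, were listed at 0 in every library.

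Cathepsin inhibitors did not follow 1 pattern. Of the 3 tested, 1 fell: Cstb, the inhibitor of cysteine cathepsins inside cells, had a log2 fold change of -1.04 ± 0.19 (SE, limma adjusted p = 0.0160), from 35.6 to 16.7 TPM on average. Cst3, the abundant secreted cystatin C, did not pass (-0.17, adjusted p = 0.177). Cst6 also did not pass as deposited (0.27, adjusted p = 0.126), although after median-of-ratios scaling it was higher (0.60, adjusted p = 0.0243).

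Of 38 lysosomal hydrolases and activators tested, 18 fell and none rose, and 28 fell with the legs paired, beside 23.3% and 48.4% lower over all genes. After median-of-ratios scaling 6 were lower and 1, Gaa, was higher. At an unadjusted p under 0.05, limma gave 26 lower and 1 higher. The share of all genes lower at that threshold was not computed, and is at least the 23.3% lower after adjustment. The unadjusted counts therefore do not set this list apart from other genes. The list had a median of -0.53, or -0.22 after median-of-ratios scaling, beside -0.32 and -0.0047 for all genes. Lgmn, the asparaginyl endopeptidase that processes cathepsins, was at 72.6, 53.8 and 105.9 TPM in LrpprcWT and at 37.9, 28.7 and 30.2 TPM in LrpprcP27A muscle, a log2 fold change of -1.19 ± 0.23 (SE, limma adjusted p = 0.0168). Psap, the precursor of the saposins, did not pass (-0.20, adjusted p = 0.173). Nor did Gaa, which breaks down lysosomal glycogen (0.25, adjusted p = 0.105), though it was higher after median-of-ratios scaling (0.63, adjusted p = 0.0348).

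Of the 21 other lysosomal membrane proteins tested, 4 fell, 9 with the legs paired, and 1 rose, beside 23.3% and 48.4% lower and 1.34% higher over all genes. After median-of-ratios scaling 1 was lower and 2 were higher. Their median was -0.28, close to that of all genes, and 0.05 after median-of-ratios scaling. Laptm4a fell (-0.52, limma adjusted p = 0.0249), as did the tetraspanin Cd63 (-0.60, limma adjusted p = 0.0405), whereas Scarb2, the receptor that carries beta-glucocerebrosidase to the lysosome, did not pass unpaired (-0.30, adjusted p = 0.0913, or 0.0494 with the legs paired). After median-of-ratios scaling Laptm4a and Cd63 did not pass either (adjusted p = 0.225 and 0.182). The gene that rose, named after its value was seen, was Npc1, which exports cholesterol from the lysosome. It was at 6.81, 7.42 and 8.35 TPM in LrpprcWT and at 10.6, 11.4 and 16.3 TPM in LrpprcP27A muscle, without overlap, for a log2 fold change of 0.68 ± 0.17 (SE, limma adjusted p = 0.0302).

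The V-ATPase pumps protons into the lysosome. Of its 19 subunits and accessory genes tested, 6 fell and none rose, with 14 lower once the legs were paired, beside 23.3% and 48.4% over all genes, and the median was -0.40 as deposited and -0.04 after median-of-ratios scaling. After that scaling 0 were called in either direction, and with pairing as well 3 were lower and 2 higher. Atp6ap1 fell (-0.52, limma adjusted p = 0.0273, or 0.238 after scaling), whereas Atp6v0c (-0.45, adjusted p = 0.0609, or 0.00860 with the legs paired) and Atp6v1g1 (-0.12, adjusted p = 0.395) did not pass. At an unadjusted p under 0.05, limma on the deposited scale gave 11 lower and 0 higher. The share over all genes was again not computed, so these counts do not set the list apart from other genes. Of 9 sorting genes 1 fell, 4 with the legs paired, with 1 lower and 2 higher after median-of-ratios scaling, and the median was -0.30, or 0.02 after that scaling. The gene that fell, named after its value was seen, was Gga2, an adaptor for mannose 6-phosphate receptors (-0.82, limma adjusted p = 0.0168). The receptor Igf2r (-0.46, adjusted p = 0.0528, or 0.00837 with the legs paired), Gga1 (-0.02, adjusted p = 0.877) and Sort1 (-0.05, adjusted p = 0.797) did not pass. After median-of-ratios scaling Gga1 was higher (0.34, limma adjusted p = 0.0340).

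Of the 20 regulators tested, which include Tfeb relatives, Rag GTPases and Ragulator subunits, 3 fell, 10 with the legs paired, and 1 rose, beside 23.3% and 48.4% lower and 1.34% higher over all genes. After median-of-ratios scaling 0 were lower and 1 was higher. The gene that rose was Rragd, which brings the mTORC1 kinase to the lysosome and which Tfeb is known to activate. Its level was 63.6, 72.3 and 66.0 TPM in LrpprcWT and 79.7, 103.9 and 98.7 TPM in LrpprcP27A muscle, separate between groups, a log2 fold change of 0.47 ± 0.13 (SE, limma adjusted p = 0.0339) that was 0.84 after median-of-ratios scaling (adjusted p = 0.0339). Bhlhe40, a repressor that binds E-boxes, fell (-0.47, limma adjusted p = 0.0390) as deposited but did not pass after that scaling (-0.10, adjusted p = 0.633), and Lamtor5 did not pass (-0.18, adjusted p = 0.273). The median of the list was -0.34, or -0.01 after scaling.

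**Figure D4:**
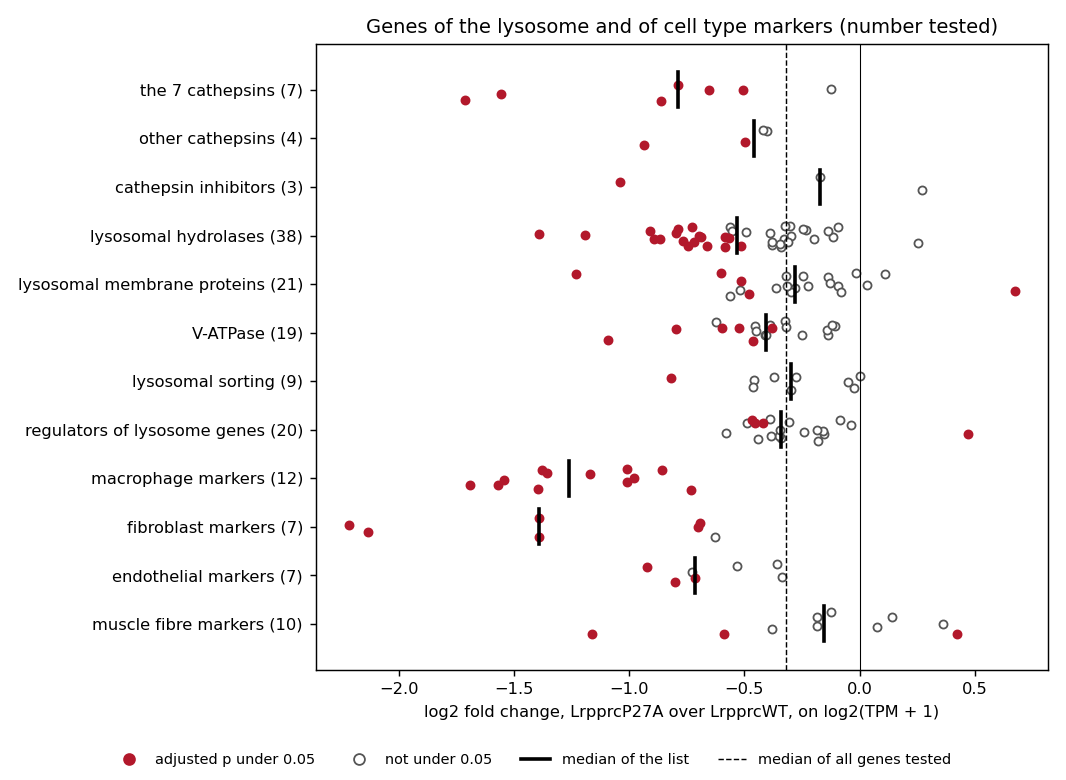
Log2 fold change (LrpprcP27A over LrpprcWT, TPM as deposited) of each tested gene in the lists of lysosomal genes and cell type markers, with filled points for adjusted p under 0.05, a bar for the median of each list and a dashed line for the median of all genes tested. The medians of the macrophage (-1.26) and fibroblast (-1.39) markers lie farthest below 0; after median-of-ratios scaling the list medians of membrane proteins (0.05), sorting genes (0.02), cathepsin inhibitors (0.20) and muscle fibre markers (0.22) lie above 0.

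Cathepsins are abundant in cells other than muscle fibres. Markers of some such cells were lower in LrpprcP27A muscle, as were 6 of the 7 cathepsins but not Ctsd. Of 14 macrophage markers 12 were tested and all 12 fell, with a median of -1.26 (-0.93 after median-of-ratios scaling, with 5 called lower). Over all genes 23.3% were lower, 48.4% with the legs paired and 6.03% after that scaling. The 14 summed to 348 to 700 TPM in LrpprcWT and 116 to 240 TPM in LrpprcP27A muscle. Lyz2, the myeloid lysozyme, had a log2 fold change of -1.54 and C1qa, a complement subunit, of -1.38 (limma adjusted p = 0.0144 and 0.0306, or 0.0329 and 0.0816 after scaling). The remaining markers, Cd163 and Cx3cr1, were under the filter. Cx3cr1 was at 1.07 to 1.68 TPM in LrpprcWT and 0.181 to 0.825 TPM in LrpprcP27A muscle, whereas Cd163 lay the other way, at 0.315 to 0.581 and 0.821 to 1.67 TPM, and neither was tested. Of 7 fibroblast markers 6 fell, 7 with the legs paired, with a median of -1.39 (-1.02 after scaling, with 4 called lower), and their sum was 873 to 1463 TPM in LrpprcWT and 240 to 512 TPM in LrpprcP27A muscle. Col3a1 (-2.14) and Col1a1 (-2.22), the main fibrillar collagens, were among them (limma adjusted p = 0.0116 and 0.0124).

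The muscle fibre markers showed the tissue to be as labelled, with sums of 125840 to 140371 TPM in LrpprcWT and 116092 to 130669 TPM in LrpprcP27A muscle. Of these 10 markers 2 fell, or 3 with the legs paired, and 1 rose, or 2 with the legs paired, and after median-of-ratios scaling 0 were lower and 1 was higher. Over all genes 23.3% fell (48.4% paired, 6.03% after scaling) and 1.34% rose (2.69% paired, 5.25% after scaling). Acta1, the actin of the sarcomere (-0.18, adjusted p = 0.197), and Tnnt3, a troponin of fast fibres (0.08, adjusted p = 0.586), did not pass. Of 7 endothelial markers 3 fell, 7 with the legs paired, with a median of -0.72 (-0.36 after scaling, with 0 called in either direction). Cdh5 (-0.80) and Cldn5 (-0.92), proteins of endothelial junctions, were among the 3 (limma adjusted p = 0.0424 for each, or 0.170 and 0.201 after scaling). What part these cells have in the cathepsin values was not tested.

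For each member, the tested gene with the most similar pattern was taken as the one with the smallest root mean square difference of log2(TPM + 1) after each gene was centred over the 6 libraries. For Ctss this was Cd68, the lysosomal protein used as a macrophage marker, at a difference of 0.0871, and for Ctsk it was Col5a1, a fibrillar collagen, at 0.0991. These patterns were rare, with 2 genes within 0.1 of Ctss and 1 of Ctsk, against 38 for Ctsc, 70 for Ctsz, 87 for Lamp2, 502 for Ctsl, 831 for Ctsd, 925 for Tfeb, 1042 for Ctsb and 1517 for Lamp1. For the flatter genes a nearest gene is therefore 1 of many: Pkp2 for Ctsc, Rassf5 for Ctsz, Spty2d1 for Lamp2, P4hb for Ctsl, Ints12 for Ctsd, Dennd1a for Tfeb, Taf6l for Ctsb and Tm2d1 for Lamp1, at differences of 0.0132 to 0.0509.

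Cd68 was at 19.2, 14.9 and 32.7 TPM in LrpprcWT and at 8.63, 4.06 and 5.58 TPM in LrpprcP27A muscle, and the ratio of Ctss to Cd68 was 2.44, 2.43 and 2.85 in LrpprcWT and 2.52, 2.91 and 2.74 in LrpprcP27A muscle. Cd68 was picked for its likeness to Ctss in these same libraries, so a steady ratio follows from the choice and is given as a description. Per 100 TPM of summed macrophage markers, Ctss was at 10.4, 10.4 and 13.3 TPM in LrpprcWT and at 9.07, 10.1 and 8.77 TPM in LrpprcP27A muscle. By this measure the groups were close but did not overlap. Lyz2 alone was at a mean of 256 of the 499 TPM of that sum in LrpprcWT muscle. The log2 fold changes of the tested macrophage markers ran from -1.69 to -0.73, beside -1.71 for Ctss. Ratios of Ctss to single markers other than Cd68 were not computed.

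Col5a1 was at 66.7, 35.1 and 59.6 TPM in LrpprcWT and at 23.2, 11.2 and 14.1 TPM in LrpprcP27A muscle. The ratio of Ctsk to Col5a1 was 0.561, 0.522 and 0.552 in LrpprcWT and 0.653, 0.540 and 0.541 in LrpprcP27A muscle, which again follows from the choice of Col5a1. Per 100 TPM of summed fibroblast markers, Ctsk was at 2.56, 2.10 and 2.47 TPM in LrpprcWT and at 2.96, 2.53 and 2.49 TPM in LrpprcP27A muscle, and the groups overlapped. That sum is mostly collagen, with Col1a1 and Col3a1 at means of 423 and 512 of 1222 TPM in LrpprcWT muscle. The other markers are named after their values were seen. Dcn (-0.69), Pdgfra (-0.70) and Pi16 (-0.63) differed less than Ctsk (-1.56), and Lum and Dpt were at -1.39 each. The overlap is thus that of this sum, and ratios of Ctsk to its single markers were not computed. The ratios of Ctsk to Col5a1 and to the sum are not affected by the scaling of a library.

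**Figure D5:**
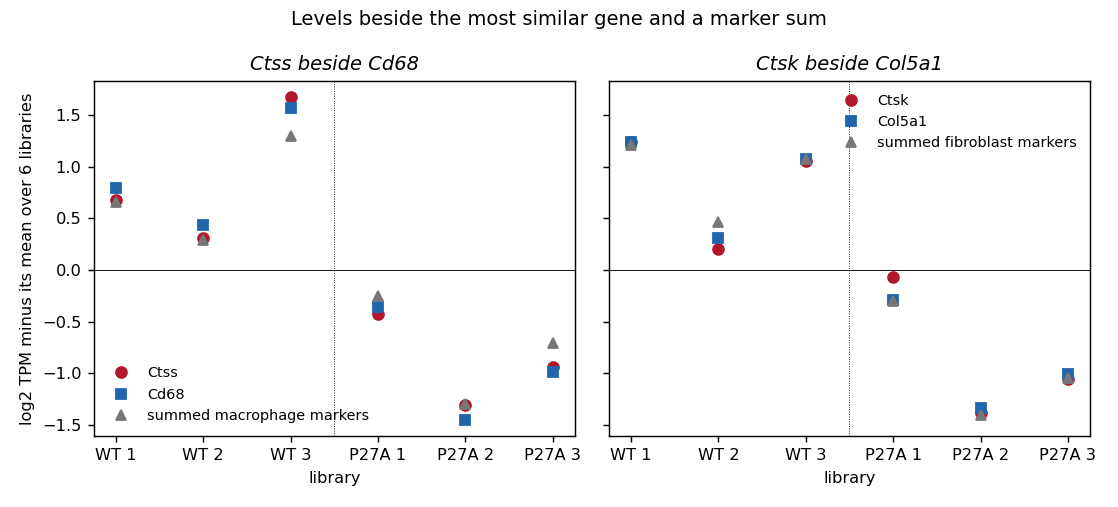
Log2 TPM minus its mean over the 6 libraries (vertical axis) for Ctss with Cd68 and the summed macrophage markers (left), and for Ctsk with Col5a1 and the summed fibroblast markers (right), in each LrpprcWT (WT) and LrpprcP27A (P27A) library. The cathepsins, marker genes and sums each lie above their mean in every LrpprcWT library and below it in every LrpprcP27A library. Their distances from the mean differ, and Ctsk lies only just below its mean in the first LrpprcP27A library.

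Ctsk and Ctss are neighbours on chromosome 3 of GRCm39, both on the plus strand, at chr3:95406178-95416732 and chr3:95433963-95463717, with 17.2 kb between them. The other members are spread over the genome: Ctsb lies at chr14:63358384-63383372, Ctsc at chr7:87927092-87960096, Ctsd at chr7:141929646-141941775, Ctsl at chr13:64507151-64518704 and Ctsz at chr2:174267304-174280832. Lamp1 lies at chr8:13209121-13227360, Lamp2 at chrX:37488520-37545340 and Tfeb at chr17:48047837-48103348. Each is annotated as protein coding.

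The library kit does not mark the strand, so reads from overlapping genes on opposite strands cannot be told apart. Such overlaps exist for Ctsb with Fdft1, at 18.1 to 26.0 TPM in LrpprcWT and 26.9 to 31.6 TPM in LrpprcP27A muscle, and for Ctsz with Nelfcd, at 18.0 to 24.9 and 13.1 to 15.7 TPM. Fdft1 was thus higher in LrpprcP27A libraries where Ctsb was lower, while Nelfcd was lower in them, as was Ctsz. Lamp1 overlaps Grtp1 (1.52 to 2.23 TPM over all libraries), Ctsd overlaps Gm49369 on its own strand (0.299 to 1.87 TPM) and Ctsl overlaps Gm47123, which was listed at 0. Processed pseudogenes also overlap Ctss (Hmgb1-ps5) and Ctsl (Gm49230) on the same strand, and the non-coding gene Gm64292 overlaps Lamp1 on the opposite strand. Their levels were not looked at here. The values of the members named in this paragraph are uncertain to that extent.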

How the data were processed

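The authors prepared libraries from total RNA with the TruSeq RNA v2 kit, sequenced 100 bp paired-end reads on a NovaSeq instrument, kept reads above Phred 20 and at least 50 bp, and mapped them to GRCm39 in CLC Genomics Workbench v20.0.4. The deposited table holds 1 TPM value per gene and library, and each library sums to the same total, so read depth was not recoverable and no counting error is given. Columns were assigned by sample title.

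Tested were 11611 of 41709 genes, those averaging 1 TPM or more across 6 libraries, with limma 3.58.1 in R 4.3.3 on log2(TPM + 1), using a trended prior, two-sided, and Benjamini-Hochberg adjustment over all genes tested, with a threshold of 0.05. Fold changes on this scale understate the change of low genes. The study's own test, Kruskal-Wallis, cannot pass adjustment at 3 against 3. The study used opposite legs of the same mice, but no label names the mouse, so pairing by library number is an assumption. Libraries with the same number deviated together from their group means (correlations 0.36, 0.53 and 0.36 over genes). A fit with the replicate number as a block is therefore given where it changes a call. Each library is a separate muscle, and p-values measure the spread between these. Median-of-ratios factors came from the tested genes, and every TPM of a library was divided by its factor. The limma script was tested on simulated data. Intervals are at 95%.

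The genes and lists were chosen with earlier results of these data known. Named were all members, the 3 genes with the highest mean TPM of each pathway list and the 2 of each marker list, the nearest gene of each member, and any gene said to be named after its value was seen. Gene positions are from GENCODE on GRCm39. Alternatives were another pseudocount, other filters, other scalings, the block, the Kruskal-Wallis test and each library left out. Protein sequences were not analysed here.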

Additional observations from a re-analysis of the deposited data

How the results depend on the processing

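With TPM as deposited, 7 of the 10 genes were called lower and 0 higher. The counts were the same with a pseudocount of 0.1, with a minimum mean TPM of 5 and with the replicate block, in which the legs were paired: 7 lower and 0 higher. Over all genes, these fits in that order called 2760 of 11611, 1560 of 7082 and 5619 of 11611 lower. The block changed no other call on a member, and the counts it gave for gene lists stand beside those lists. Without a filter 0 of the 10 were called lower, beside 24 of all 41709 genes. By the Kruskal-Wallis test 0 were, as over all genes, since its smallest possible p at 3 against 3, 0.0495, cannot pass adjustment. In each of these, 7 had an unadjusted p under 0.05, and the cause of the loss without a filter was not tested. Median-of-ratios scaling and quantile normalization left 3 lower calls each, beside 700 and 518 of 11611 genes. Pairing after median-of-ratios scaling gave 6 lower and 2 higher, beside 1839 and 1561 of 11611 genes. Leaving out 1 library gave 0 to 7 lower calls, with 0 when the third LrpprcWT library was left out, and 0 higher calls each time. Over all genes the lower calls in those fits ran from 14 of 11476 to 6918 of 11622, and fewer libraries were tested there.

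The direction of 3 genes, none of which passed as deposited, turned. Ctsd went from -0.13 to 0.25 (median-of-ratios scaling, with or without the block), 0.11 (quantile normalization) and 0.0072 (without the third LrpprcWT library), with -0.21 to 0.0072 over the libraries left out. Lamp1 went from -0.11 to 0.27 with median-of-ratios scaling, with or without the block, and 0.13 with quantile normalization. Tfeb went from -0.02 to 0.34, again with or without the block, 0.30 with quantile normalization, and 0.016 without the first LrpprcWT library, with -0.037 to 0.016 over the libraries left out. The other 7 genes kept a log2 fold change below 0 under all 14 alternatives. Without read counts, low genes such as Ctsk cannot be given a counting error.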

Other observations

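The other cell type markers looked at gave mixed values. Over all genes 23.3% were lower, 48.4% with the legs paired and 6.03% after median-of-ratios scaling. The higher calls were 1.34% of all genes, or 2.69% with the legs paired. Of 3 satellite cell markers 2 fell, 3 with the legs paired: Pax7 by 0.60 on the log2 scale (limma adjusted p = 0.0277, or 0.0875 after median-of-ratios scaling), while Chodl passed only when paired (-0.59, adjusted p = 0.0740, or 0.00256 paired). Of 5 smooth muscle and pericyte markers 2 fell, 4 with the legs paired, and Rgs5 (-0.34, adjusted p = 0.149, or 0.0250 paired) and Acta2 (-0.67, adjusted p = 0.0594, or 0.000441 paired) did not pass unpaired. After median-of-ratios scaling 1 satellite cell marker and 0 of the smooth muscle and pericyte markers were lower. Among neutrophil (3 tested), lymphocyte (1), adipocyte (1) and red cell (4) markers limma called 0 in either direction, and at an unadjusted p under 0.05 it gave 1 lower neutrophil marker and 0 others. With the legs paired 1 neutrophil marker and the lymphocyte marker were lower, and 2 of the red cell markers were higher. S100a9 (-0.55, adjusted p = 0.0581, or 0.00510 paired), S100a8 (-0.40, adjusted p = 0.271) and Cd79a (-0.41, adjusted p = 0.169, or 0.0260 paired) were below 0, while Adipoq (0.06, adjusted p = 0.887), Hbb-bs (0.31, adjusted p = 0.220, or 0.0486 paired) and Hba-a1 (0.18, adjusted p = 0.371) were above 0. After median-of-ratios scaling Rgs5 was at 0.04.

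The hydrolase Acp5, tartrate-resistant acid phosphatase, often used as an osteoclast stain and also found in macrophages, was named here after its value was seen. It had a log2 fold change of -1.39 ± 0.24 (SE, limma adjusted p = 0.0154), from 4.04, 2.42 and 5.16 TPM in LrpprcWT to 1.26, 0.527 and 0.701 TPM in LrpprcP27A muscle, without overlap.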
